A study of Mus musculus with 6 samples.

Results

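The genes described here carry the fibroblast growth factor (FGF) signal from the secreted ligand to the transcription of ERK target genes. They were 45 genes chosen by symbol from the 54715 genes of the deposited count table, and comprised 8 ligands, 5 receptors, 11 adaptors and kinases of the Ras-ERK cascade, 10 feedback inhibitors and 11 ERK target genes. RNA-Seq of mouse ASCs (advanced embryonic stem cells, kept in a pluripotent state by defined factors) compared 3 libraries of WT ASCs, labelled wild type, with 3 libraries of *Bdh2*-knockout ASCs, labelled *Bdh2*-/-. *Bdh2* encodes a 3-hydroxybutyrate dehydrogenase, and the comparison asks what its loss changes in these cells. Both genotypes descend from a cross of a 129/sv female with a GOF/GFP male, in which GFP reports *Oct4* promoter and distal enhancer activity. Both were grown in N2B27 medium with activin A, BMP4, CHIR99021 (an inhibitor of the kinase GSK3) and leukemia inhibitory factor. None of these additives is an FGF or an inhibitor of MEK. The knockout was made with Cas9 and a pair of guide RNAs near the start codon. Single colonies were picked, and of the ASCs a clone with a deletion on both alleles was taken forward, so the knockout libraries may all come from 1 clone. The labels name neither the clone nor separate cultures for the 3 libraries of a genotype, so the p-values measure only the spread between these libraries, which may be technical.

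FGF ligands bind receptor tyrosine kinases together with heparan sulfate, and the receptors signal through the docking protein FRS2, the GRB2-SOS complex and Ras to the kinases RAF, MEK and ERK. ERK turns on immediate early genes and ETS factors, and also its own inhibitors of the Sprouty, SPRED and dual-specificity phosphatase families. In the mouse blastocyst FGF4 comes from the epiblast, FGFR1 and FGFR2 receive it, and the signal drives inner cells towards primitive endoderm. In pluripotent stem cells it promotes exit from the naive state.

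The libraries held 18927748 to 28333541 counts on genes. Levels are given as CPM (the read count scaled by library size, here the TMM-normalized one), and levels of different genes are compared only as FPKM (CPM per kilobase of the listed gene length). In these libraries 3 counts were 0.106 to 0.158 CPM, counting error only. *Bdh2* RNA (ENSMUSG00000028167) averaged 9.43 ± 1.10 CPM in the WT replicates and 5.44 ± 0.485 CPM in the knockout replicates (SD, n = 3; log2 fold change -0.79 ± 0.12 (SE), adjusted p = 2.5e-04), so 57.7% of its RNA level was still counted. The edgeR quasi-likelihood test with Benjamini-Hochberg adjustment was fitted over 16758 genes, with all 45 FGF-ERK genes among them. At an adjusted p under 0.05 it called 41.7% of all tested genes, 21.0% higher and 20.8% lower in the knockout, and the libraries of the genotypes did not overlap for 52.4%. The pluripotency genes *Pou5f1*, *Sox2* and *Nanog* were present at 1469, 402 and 333 CPM in WT ASCs and at 1655, 366 and 319 CPM in *Bdh2*-knockout ASCs. Libraries of one genotype stood apart in adult hepatocyte transcripts, which summed to 620, 380 and 59.5 CPM in WT replicates 1 to 3 and 47.5, 180.5 and 33.0 CPM in knockout replicates 1 to 3, with *Mup20* near the 3-count limit. Of 19 tested hepatocyte genes 17 were called lower, but the genotypes overlapped for every one.

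Promoter windows of 300 bases (250 before to 50 after the start site, RefSeq, GRCm38.p6) were matched by symbol for 33 of the 45 genes, with 42 windows in all. The 4 windows below are shown because they belong to genes that moved in opposite directions, *Dusp5* and *Etv5* higher and *Jun* and *Ier3* lower in *Bdh2*-knockout ASCs. Capitals mark matches to the CArG box, the binding motif of serum response factor, in *Dusp5* and matches to CCAAT, read on both strands as CCAAT or ATTGG, in the other windows.
*Dusp5* (chr19:53528895-53529194, plus strand): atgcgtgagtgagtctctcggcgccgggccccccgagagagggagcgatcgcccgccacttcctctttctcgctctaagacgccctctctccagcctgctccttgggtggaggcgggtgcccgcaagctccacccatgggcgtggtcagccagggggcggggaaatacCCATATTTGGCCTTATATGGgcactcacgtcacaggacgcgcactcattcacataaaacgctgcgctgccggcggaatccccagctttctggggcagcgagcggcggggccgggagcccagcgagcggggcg
*Etv5* (chr16:22439521-22439820, minus strand): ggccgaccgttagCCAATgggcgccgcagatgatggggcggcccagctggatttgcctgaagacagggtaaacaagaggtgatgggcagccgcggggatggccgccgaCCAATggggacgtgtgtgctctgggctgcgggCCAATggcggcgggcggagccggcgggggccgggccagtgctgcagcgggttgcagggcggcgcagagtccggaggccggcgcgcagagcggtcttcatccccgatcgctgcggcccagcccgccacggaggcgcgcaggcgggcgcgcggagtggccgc
*Jun* (chr4:95052173-95052472, minus strand): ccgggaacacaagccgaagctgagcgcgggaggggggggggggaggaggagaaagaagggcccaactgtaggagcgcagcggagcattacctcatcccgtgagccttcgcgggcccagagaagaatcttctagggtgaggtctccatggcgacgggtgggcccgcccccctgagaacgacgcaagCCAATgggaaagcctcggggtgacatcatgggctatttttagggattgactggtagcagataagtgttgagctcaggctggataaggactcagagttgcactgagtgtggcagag
*Ier3* (chr17:35821463-35821762, plus strand): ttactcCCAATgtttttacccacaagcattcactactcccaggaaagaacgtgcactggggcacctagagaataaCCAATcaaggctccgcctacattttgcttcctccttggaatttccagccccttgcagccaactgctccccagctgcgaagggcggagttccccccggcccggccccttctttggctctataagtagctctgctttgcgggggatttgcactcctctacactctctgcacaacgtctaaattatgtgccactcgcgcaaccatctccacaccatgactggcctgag

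The *Dusp5* window held 2 adjacent CArG matches, of which the first base lay 82 and 72 bases before the start site. CArG matches stood in 11.9% of the 42 windows, 1 of *Dusp5* and 4 of *Egr2*, of which 3 overlap each other and hold the same site, and in 1.63% of all 32851 RefSeq windows of this length. The CCAAT letters stood in 47.6% against 37.4% of all windows. The AP-1 letters (TGACTCA or TGAGTCA) stood in 2.38% against 5.2%, the CRE letters (TGACGTCA) in 4.76% against 1.79%, and the ETS letters (CCGGAAGT or ACTTCCGG) in 7.14% against 3.89%. The TATA box letters (TATAAA or TTTATA) stood in 9.52% against 13.6%, and the EGR letters (GCGTGGGCG or CGCCCACGC) in 0 of the 42 windows against 0.612% of all. Within a window no match overlapped another.

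Of the 45 genes, 19 passed the test with a higher level in *Bdh2*-knockout ASCs, 9 passed with a lower one, and 17 did not pass. These 28 calls are 62.2% of the genes, beside 41.7% of all genes tested, and the genotypes did not overlap for 29 of them (64.4%, beside 52.4%). Many of the FGF-ERK genes had high counts. The 40 with a mean count of at least 50 included 25 called genes (62.5%), beside 48.3% of all genes above that mean. The differences were mostly small. The median log2 fold change was 0.077, against -0.013 over all genes tested. Without the sign, the median size was 0.30, against 0.23 over all genes tested. In either direction 8 called genes reached 0.5 on the log2 scale, which 15.4% of all tested genes did. Only *Fgf18*, *Fgfr2* and *Ier3* changed at least 2-fold in this fit, beside 5.29% of all tested genes. By role, 4 ligands were higher and 0 lower, 1 receptor higher and 2 lower, 4 adaptors or kinases higher and 3 lower, 5 feedback inhibitors higher and 1 lower, and 5 ERK target genes higher and 3 lower. The test against a 1.2-fold change in place of any change left 6 higher and 2 lower, 17.8% of the 45 genes beside 14.7% of all tested genes, a share near the background.

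**Figure D1:**
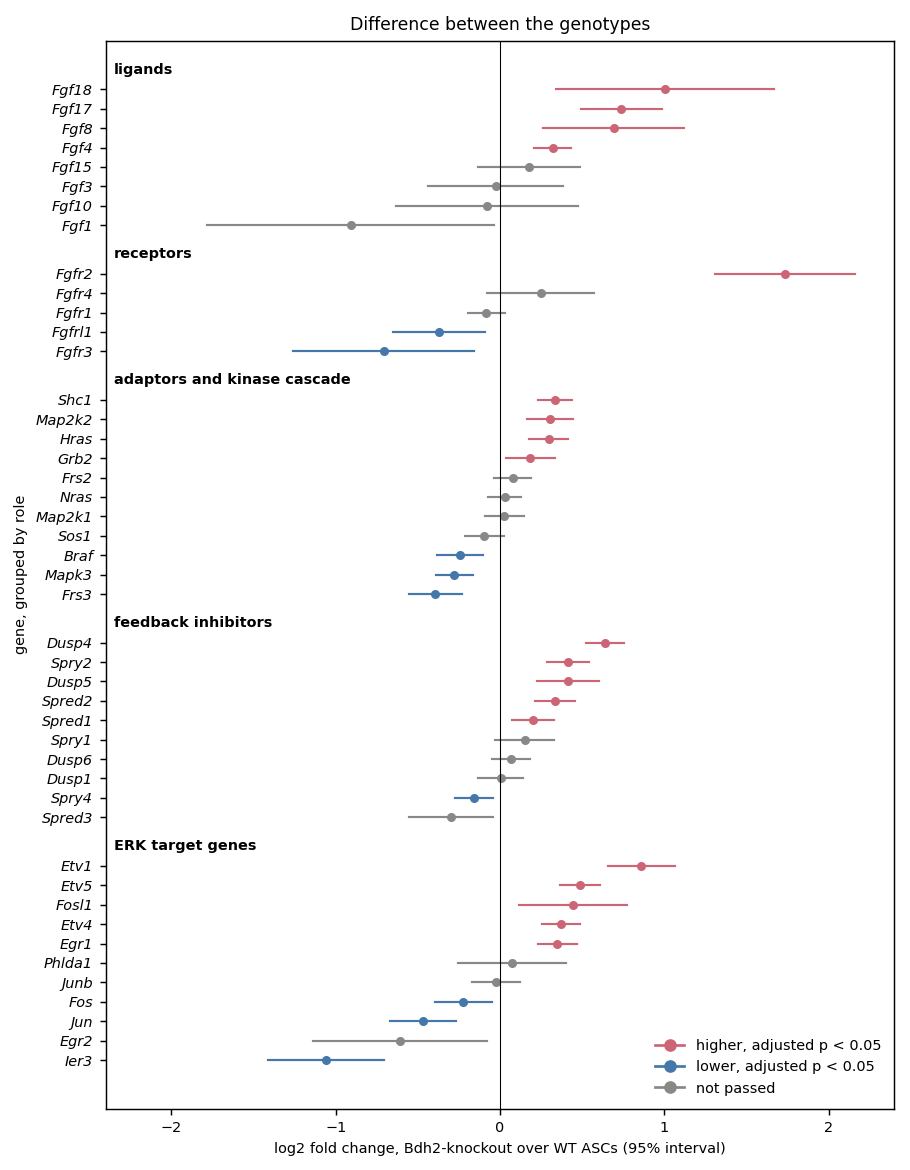
Log2 fold change (*Bdh2*-knockout over WT ASCs, x axis) of each of the 45 FGF-ERK genes, grouped by role, with the 95% interval of the edgeR fit over 3 against 3 libraries. *Fgfr2* lies farthest to the right at 1.73, *Ier3* farthest to the left at -1.06, and most intervals of the cascade genes lie within 0.5 of 0.

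*Fgf4* was the dominant ligand RNA. It stood at 45.7 ± 2.55 FPKM (SD, n = 3) in WT ASCs and 57.1 ± 0.334 FPKM in *Bdh2*-knockout ASCs, out of 55.4 ± 2.80 and 71.0 ± 0.537 FPKM summed over the 8 ligands. The gene (ENSMUSG00000050917, chromosome 7, 144847367 to 144865243, plus strand) encodes the main FGF of the epiblast. Its levels in WT replicates 1 to 3 were 138, 147 and 154 CPM, and in *Bdh2*-knockout replicates 1 to 3 182, 182 and 184 CPM. The knockout libraries were nearly equal and all above the WT libraries, which were more spread. *Fgf4* rose 1.25-fold (log2 fold change 0.32 ± 0.052 (SE), adjusted p = 3.5e-04).

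*Fgf8*, *Fgf17* and *Fgf18* encode the ligands of the FGF8 subfamily, known for roles in gastrulation and midbrain patterning, and all 3 were higher. *Fgf17* (ENSMUSG00000022101, chromosome 14, 70636203 to 70642268, minus strand) was counted at 6.80, 8.67 and 7.08 CPM in the WT replicates and at 12.3, 13.8 and 11.4 CPM in the knockout replicates. No library of one genotype reached the other, and *Fgf17* rose 1.67-fold (log2 fold change 0.74 ± 0.11 (SE), adjusted p = 2.2e-04). *Fgf8* (ENSMUSG00000025219, chromosome 19, 45736798 to 45742915, minus strand) lay at 1.60, 1.29 and 1.62 CPM against 2.50, 2.38 and 2.42 CPM (log2 fold change 0.69 ± 0.20 (SE), adjusted p = 0.013). Its genotypes did not overlap either, but the call was lost without WT replicate 2, the lowest library (log2 fold change 0.60, adjusted p = 0.053). *Fgf18* (ENSMUSG00000057967, chromosome 11, 33117430 to 33147400, minus strand) had only 8, 9 and 16 counts in the WT replicates and 27, 26 and 27 in the knockout replicates. This is 0.412, 0.446 and 0.633 CPM against 0.980, 0.953 and 1.13 CPM, a 2.01-fold rise (log2 fold change 1.00 ± 0.31 (SE), adjusted p = 0.019) with no overlap. The call did not hold with DESeq2 (log2 fold change 1.02, adjusted p = 0.065), nor in 3 of the 6 fits that left out a library, those without WT replicate 1, WT replicate 2 or *Bdh2*-knockout replicate 3 (adjusted p = 0.067, 0.064 and 0.063).

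The other 4 ligands did not pass. *Fgf3* and *Fgf10*, whose products act on epithelial receptor forms, and *Fgf15*, the mouse counterpart of the endocrine FGF19, had log2 fold changes of -0.027, -0.08 and 0.18 (95% intervals -0.44 to 0.38, -0.63 to 0.47 and -0.13 to 0.48), and their genotypes overlapped. *Fgf1*, a ligand without a signal peptide, had 13, 12 and 12 counts in the WT replicates and 7, 12 and 5 in the knockout replicates (log2 fold change -0.91, adjusted p = 0.088). In CPM its genotypes did not overlap (0.475 to 0.670 against 0.209 to 0.440). It was the 1 ligand with an unadjusted p under 0.05 in the lower direction in edgeR, and DESeq2 also called 0 ligands lower.

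*Fgfr1* was the dominant receptor RNA in both genotypes, and the largest change among the 45 genes was that of *Fgfr2*, which stayed a small part of the receptor RNA. Of the FPKM summed over the receptors with a kinase domain, *Fgfr1* made up 87.3 ± 2.19% (SD, n = 3) in WT and 84.3 ± 1.15% in *Bdh2*-knockout ASCs, *Fgfr4* 9.36 ± 1.45% and 11.4 ± 1.25%, *Fgfr3* 2.49 ± 0.870% and 1.55 ± 0.136%, and *Fgfr2* 0.840 ± 0.160% and 2.86 ± 0.223%. The order of *Fgfr2* and *Fgfr3* was thus reversed between the genotypes. Summed over all 5 receptors, the level was 16.9 ± 0.612 FPKM in WT and 15.9 ± 0.653 FPKM in *Bdh2*-knockout ASCs. These shares and sums are RNA per length and say nothing of receptor protein.

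*Fgfr2* (ENSMUSG00000030849, chromosome 7, 130162451 to 133123350, minus strand), a receptor of primitive endoderm precursors in the blastocyst, was counted 29, 21 and 28 times in the WT replicates and 101, 115 and 101 times in the knockout replicates. On the CPM scale these are 1.49, 1.04 and 1.11 against 3.67, 4.22 and 4.21. The lowest knockout library was far above the highest WT library, and *Fgfr2* rose 3.33-fold (log2 fold change 1.73 ± 0.20 (SE), adjusted p = 2.2e-05). This call held under every alternative that kept replicates of both genotypes, with log2 fold changes between 1.64 and 1.90. Of its exon bases 3.04% are also exon of *Ctbp2*, on the same strand. *Ctbp2* was counted far more often, 5284 to 7523 times in the WT and 6660 to 7990 times in the knockout libraries. Primitive endoderm markers moved the same way, with a summed level of 374 to 415 CPM in WT and 907 to 1001 CPM in *Bdh2*-knockout ASCs, and their part in the changes of the FGF-ERK genes was not tested. In bulk RNA, more or fewer cells of a type and more or less RNA per cell cannot be told apart.

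*Fgfr1* (ENSMUSG00000031565, chromosome 8, 25513654 to 25575718, plus strand) lay at 121, 118 and 122 CPM in the WT replicates and 112, 119.8 and 109 CPM in the knockout replicates. *Bdh2*-knockout replicate 2 lay within the WT range, and the difference did not pass (log2 fold change -0.085 ± 0.052 (SE), adjusted p = 0.21, 95% interval -0.20 to 0.027). It was called lower with library totals (log2 fold change -0.14, adjusted p = 0.039). Without the 3 libraries richest in hepatocyte transcripts, a fit with a lone WT library and so no WT spread, the log2 fold change was -0.15. *Fgfr3* (ENSMUSG00000054252, chromosome 5, 33721674 to 33737068, plus strand) lay at 2.22, 3.47 and 1.78 CPM against 1.34, 1.65 and 1.54 CPM. WT replicate 2 stood well above the other libraries, and the fall (log2 fold change -0.71 ± 0.26 (SE), adjusted p = 0.04) was smaller and not called without it (log2 fold change -0.39, adjusted p = 0.24). It was also not called with DESeq2 (adjusted p = 0.053), with limma-voom (adjusted p = 0.061), or without any single library other than WT replicate 3. *Fgfrl1*, a receptor without a kinase domain, was at 8.14 ± 1.18 CPM in WT and 6.26 ± 0.558 CPM in *Bdh2*-knockout ASCs (log2 fold change -0.37 ± 0.13 (SE), adjusted p = 0.034), and DESeq2 did not call it (log2 fold change -0.37, adjusted p = 0.055). The call of *Fgfrl1* was also lost without WT replicate 1, WT replicate 2, *Bdh2*-knockout replicate 1 or *Bdh2*-knockout replicate 3 (adjusted p = 0.14, 0.089, 0.079 and 0.14). *Fgfr4*, a receptor that binds endocrine and paracrine FGFs, did not pass (log2 fold change 0.25, 95% interval -0.077 to 0.57). Its log2 fold change was 0.60 in the fit with the lone WT library, and it was called in no alternative that kept replicates of both genotypes. Of the 5 receptors, the change of *Fgfr2* was thus the one called under every alternative that kept replicates of both genotypes.

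**Figure D2:**
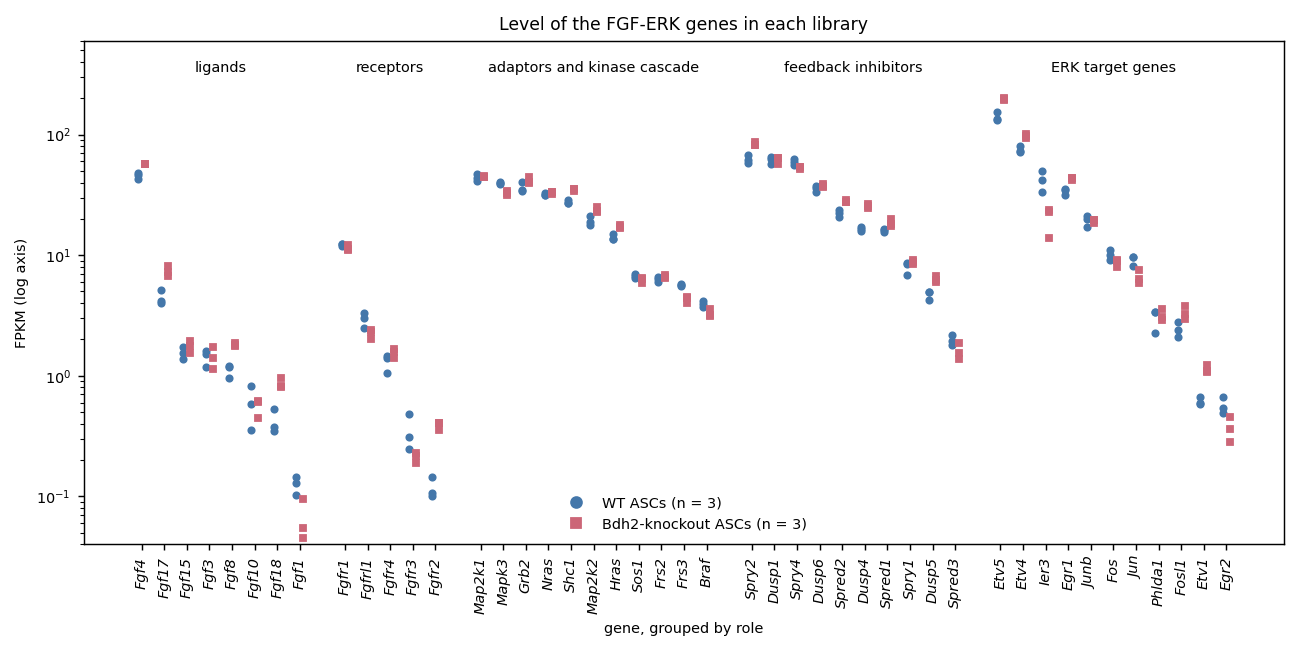
FPKM (log axis) of each FGF-ERK gene in each of the 6 libraries, ordered within each role by level. *Fgf4* and *Fgfr1* lie far above the other members of their roles in every library, and the squares of *Fgfr2* in the knockout lie above its circles in WT without overlap.

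The adaptors and kinases changed in both directions and none by 2-fold. The 11 genes had log2 fold changes between -0.39 and 0.33, and their summed level was 236 ± 10.1 FPKM (SD, n = 3) in WT and 248 ± 1.15 FPKM in *Bdh2*-knockout ASCs. *Shc1*, *Hras* and *Map2k2* rose. *Shc1*, an adaptor that links receptors to GRB2, was at 156 ± 4.10 against 197 ± 5.20 CPM (log2 fold change 0.33 ± 0.048 (SE), adjusted p = 1.4e-04). *Map2k2*, which encodes MEK2, was at 108 ± 9.57 against 134 ± 6.50 CPM (log2 fold change 0.30 ± 0.065 (SE), adjusted p = 0.0022). *Frs3*, *Mapk3* and *Braf* fell. *Mapk3*, which encodes ERK1, went from 89.6 ± 2.30 to 73.9 ± 3.08 CPM (log2 fold change -0.28 ± 0.052 (SE), adjusted p = 9.9e-04), and *Frs3*, a docking protein like FRS2, from 17.7 ± 0.347 to 13.5 ± 0.768 CPM (log2 fold change -0.39 ± 0.075 (SE), adjusted p = 0.001). *Hras*, a Ras GTPase, and *Braf*, a RAF kinase, had log2 fold changes of 0.30 and -0.25 (adjusted p = 0.001 and 0.0083), and *Braf* was not called without *Bdh2*-knockout replicate 3 (adjusted p = 0.0501).

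*Grb2*, the adaptor that brings SOS to the receptor complex, was called higher by a small margin (log2 fold change 0.19, adjusted p = 0.046) although its genotypes overlapped, at 102, 98.9 and 118 CPM against 119, 129 and 115 CPM. It was not called in 10 of 17 alternatives, among them the fits without WT replicate 1, WT replicate 2, *Bdh2*-knockout replicate 1 or *Bdh2*-knockout replicate 2, and its sign turned in 1 of them. *Map2k1* (ENSMUSG00000004936, chromosome 9, 64185770 to 64253631, minus strand), which encodes MEK1, was the most abundant RNA of the cascade at 44.1 ± 3.01 FPKM in WT. Its libraries lay at 141, 147 and 161 CPM in WT and 152, 150.5 and 155 CPM in *Bdh2*-knockout ASCs, with the knockout libraries inside the WT range (log2 fold change 0.027 ± 0.055 (SE), adjusted p = 0.73, 95% interval -0.093 to 0.15). *Frs2*, the exchange factor *Sos1* and the Ras gene *Nras* had log2 fold changes of 0.077, -0.10 and 0.029 and were not called. Among the alternatives *Sos1* was called lower in 1 of 17, with library totals (adjusted p = 0.032). The signs of *Map2k1* and *Nras* turned when library totals replaced TMM.

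Of the feedback inhibitors 5 were higher, 1 was lower and 4 did not pass, and none changed 2-fold. Their summed level was 289 ± 14.7 FPKM (SD, n = 3) in WT and 325 ± 2.58 FPKM in *Bdh2*-knockout ASCs. *Dusp4* (ENSMUSG00000031530, chromosome 8, 34807297 to 34819894, plus strand), a nuclear phosphatase of ERK, lay at 43.1, 45.1 and 46.7 CPM in the WT replicates and 69.8, 73.0 and 67.6 CPM in the knockout replicates. The 2 sets of libraries were tight and far apart, and *Dusp4* rose 1.56-fold (log2 fold change 0.64 ± 0.054 (SE), adjusted p = 1.9e-06). *Spry2* (ENSMUSG00000022114, chromosome 14, 105891947 to 105896819, minus strand), the Sprouty gene with the highest FPKM in these cells, lay at 129.5, 122 and 141 CPM against 172, 181 and 169.8 CPM. It rose 1.33-fold with no overlap (log2 fold change 0.42 ± 0.059 (SE), adjusted p = 1.3e-04). Both calls held under every alternative that kept replicates of both genotypes.

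*Dusp5*, a nuclear ERK phosphatase, and *Spred2* and *Spred1*, inhibitors of the step from Ras to RAF, also rose, with log2 fold changes of 0.41, 0.34 and 0.20 (adjusted p = 0.0022, 4.3e-04 and 0.016). Of the exon bases of *Dusp5*, 22.1% are also exon of the antisense gene AC137853.2. The call of *Spred1* was lost without WT replicate 1 or *Bdh2*-knockout replicate 1 (adjusted p = 0.052 and 0.071) and with library totals (adjusted p = 0.059). The members did not move together. *Spry4* fell slightly (272 ± 16.5 to 244 ± 6.04 CPM, log2 fold change -0.16 ± 0.053 (SE), adjusted p = 0.031), and that call was lost in 5 of the 6 fits that left out a library, all but the one without WT replicate 1. *Spred3* went the same way without passing (log2 fold change -0.30, adjusted p = 0.058). It was called lower in 5 of 17 alternatives, with library totals, with no filter on low counts, without WT replicate 3, without *Bdh2*-knockout replicate 2, and without the hepatocyte-richest library of each genotype (log2 fold change -0.43 to -0.28, adjusted p = 0.014 to 0.042). *Spry1*, and *Dusp6* and *Dusp1*, phosphatases of ERK and of several MAP kinases, had log2 fold changes of 0.15, 0.068 and 0.0045 (95% intervals -0.031 to 0.33, -0.049 to 0.19 and -0.13 to 0.14), and the sign of *Dusp1* turned with library totals. Thus *Spry2* and *Spry4*, at similar levels in WT ASCs (62.7 and 59.4 FPKM), were called in opposite directions.

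**Figure D3:**
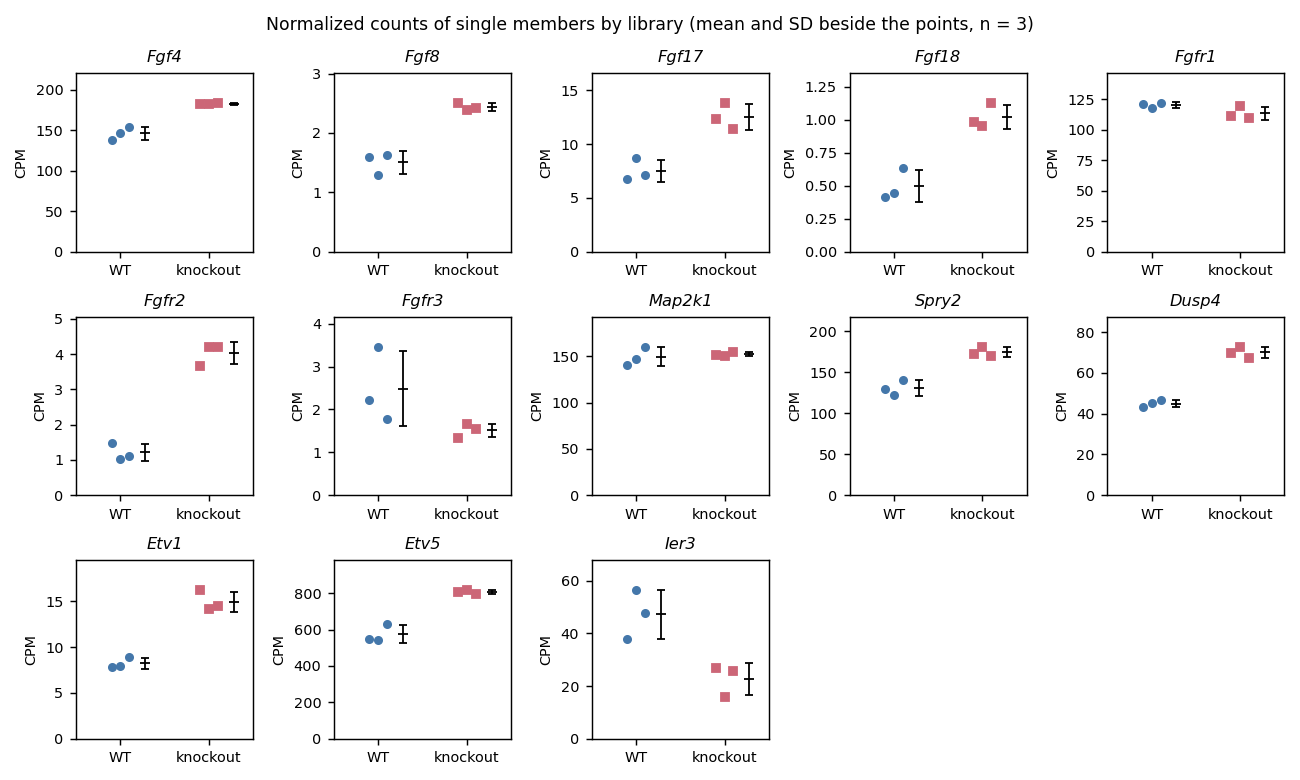
CPM in each of the 6 libraries for the 13 FGF-ERK genes described library by library, with the mean and SD (n = 3) of each genotype beside the points. The genotypes do not overlap in 11 of the panels, and they overlap in *Fgfr1* and *Map2k1*.

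The ERK target genes moved in both directions. The ETS factors of the PEA3 family, *Etv1*, *Etv4* and *Etv5*, and *Egr1* rose, whereas *Jun*, *Fos* and *Ier3* fell. *Etv5* (ENSMUSG00000013089, chromosome 16, 22381309 to 22439719, minus strand) was the most abundant of all 45 RNAs at 140.0 ± 11.9 FPKM (SD, n = 3) in WT and 197 ± 2.59 FPKM in *Bdh2*-knockout ASCs. Its libraries lay at 547, 545 and 631 CPM in WT and 806, 817 and 796 CPM in the knockout. WT replicate 3 was the highest of the WT libraries, still below every knockout library, and *Etv5* rose 1.40-fold (log2 fold change 0.49 ± 0.057 (SE), adjusted p = 2.7e-05). A related sequence, Gm4798, shares 26.8% of the 50-base stretches of its longest transcript, and was counted 17 to 26 times in the WT and 43 to 44 times in the knockout libraries. *Etv1* (ENSMUSG00000004151, chromosome 12, 38779380 to 38870484, plus strand) lay at 7.78, 7.98 and 8.90 CPM against 16.2, 14.2 and 14.5 CPM. It rose 1.82-fold with no overlap (log2 fold change 0.86 ± 0.094 (SE), adjusted p = 1.6e-05). Gm5454 shares 19.0% of its 50-base stretches and was counted 39 to 94 times per library, higher in every knockout library than in any WT library, so reads of *Etv1* and Gm5454 may be split between them. *Etv4* rose from 234 ± 14.4 to 303 ± 9.45 CPM (log2 fold change 0.37 ± 0.054 (SE), adjusted p = 1.5e-04), and *Egr1*, a zinc finger immediate early factor, from 152 ± 9.27 to 193 ± 5.71 CPM (log2 fold change 0.35 ± 0.055 (SE), adjusted p = 2.7e-04).

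*Ier3* (ENSMUSG00000003541, chromosome 17, 35821684 to 35822923, plus strand), an immediate early gene linked to cell survival, fell most. It lay at 37.9, 56.4 and 47.6 CPM in the WT replicates and 27.0, 15.8 and 25.6 CPM in the knockout replicates. The spread within each genotype was wide, the lowest WT library still exceeded the highest knockout library, and the mean was 2.08-fold lower in the knockout (log2 fold change -1.06 ± 0.16 (SE), adjusted p = 2.5e-04). The AP-1 genes did not move together. *Jun* fell from 29.1 ± 2.88 to 21.1 ± 2.74 CPM (log2 fold change -0.47 ± 0.094 (SE), adjusted p = 0.0015). *Fos* fell slightly (log2 fold change -0.22 ± 0.08 (SE), adjusted p = 0.039), a call lost with DESeq2 (adjusted p = 0.069) and in 5 of the 6 fits that left out a library, all but the one without WT replicate 1. *Fosl1*, at the low level of 4.16 ± 0.613 against 5.67 ± 0.700 CPM, rose (log2 fold change 0.45 ± 0.15 (SE), adjusted p = 0.031), but 57.2% of its exon bases are also exon of the antisense gene *Ccdc85b*. Its call was lost without WT replicate 2, WT replicate 3, *Bdh2*-knockout replicate 2 or *Bdh2*-knockout replicate 3 (adjusted p = 0.11, 0.059, 0.056 and 0.12) and with library totals (adjusted p = 0.057). *Junb* did not pass (log2 fold change -0.026, 95% interval -0.17 to 0.12). *Egr2*, a zinc finger factor like *Egr1*, had 44, 37 and 42 counts in WT and 34, 42 and 23 in the knockout. On the CPM scale these were 2.27, 1.83 and 1.66 against 1.23, 1.54 and 0.960, without overlap. It did not pass (log2 fold change -0.61, adjusted p = 0.062). It was called lower in 2 of 16 alternatives, with library totals and without *Bdh2*-knockout replicate 2. Of *Phlda1*, an ERK-responsive gene, the log2 fold change was 0.073 (95% interval -0.26 to 0.40). Over the 11 target genes the summed level was 336 ± 22.1 FPKM in WT and 400 ± 2.45 FPKM in *Bdh2*-knockout ASCs. Its largest parts were *Etv5* (140.0 in WT and 197 FPKM in the knockout) and *Etv4* (75.4 and 97.5 FPKM), and the sum rose with them. *Ier3*, the next largest part in WT, fell (41.8 and 20.1 FPKM), and *Egr1* rose (33.8 and 43.1 FPKM). Of the 11 genes 5 were called higher and 3 lower, so the higher sum does not stand for a rise of the target genes in general.

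The other genes of the pathway came from 5 lists compiled from general knowledge, 125 genes of which 113 could be tested. Of these, 35 were higher and 23 lower, which is 51.3% beside 41.7% of all tested genes (median log2 fold change 0.048). Among the other FGF ligands 6 of 14 could be tested, and 2 were higher and 2 lower (66.7% called). *Fgf5*, a ligand of the formative epiblast, went from 5, 7 and 18 counts in WT to 113, 114 and 93 in the knockout (log2 fold change 3.14 ± 0.28 (SE), adjusted p = 2.8e-06). *Fgf21*, an endocrine ligand best known from liver, went from 15, 20 and 25 to 9, 7 and 5 counts (log2 fold change -1.77 ± 0.35 (SE), adjusted p = 0.0014).

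Among 27 tested co-receptors and heparan sulfate genes 9 were higher and 3 lower. That is 44.4% called, a share near the 41.7% of all tested genes. *Klb*, which encodes the co-receptor β-Klotho of endocrine FGFs, rose from 7, 8 and 4 to 47, 91 and 65 counts (log2 fold change 3.11 ± 0.37 (SE), adjusted p = 3.1e-05). *Hs3st1*, a heparan sulfate sulfotransferase, rose from 17, 24 and 21 to 99, 114 and 99 counts (log2 fold change 2.04 ± 0.21 (SE), adjusted p = 8.3e-06). Of 30 other cascade genes 10 were higher and 6 lower (53.3% called). The Ras-family GTPase gene *Mras* rose from 9.18 ± 0.420 to 26.6 ± 1.43 CPM (SD, n = 3, log2 fold change 1.54 ± 0.076 (SE), adjusted p = 2.2e-08). Of 23 other inhibitors 5 were higher and 6 lower (47.8% called, again near that share, median log2 fold change -0.040). *Dusp8*, a phosphatase of stress kinases, fell from 4.54 ± 0.872 to 2.25 ± 0.528 CPM (log2 fold change -1.02 ± 0.20 (SE), adjusted p = 0.0015). Of 27 other ERK response genes 9 were higher and 6 lower (55.6% called). The AP-1 gene *Fosb* fell from 5.56 ± 0.256 to 2.65 ± 0.346 CPM (log2 fold change -1.06 ± 0.15 (SE), adjusted p = 1.3e-04), and *Emp1*, which encodes an epithelial membrane protein, rose from 4.60 ± 0.731 to 10.9 ± 0.933 CPM (log2 fold change 1.25 ± 0.13 (SE), adjusted p = 8.7e-06).

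**Figure D4:**
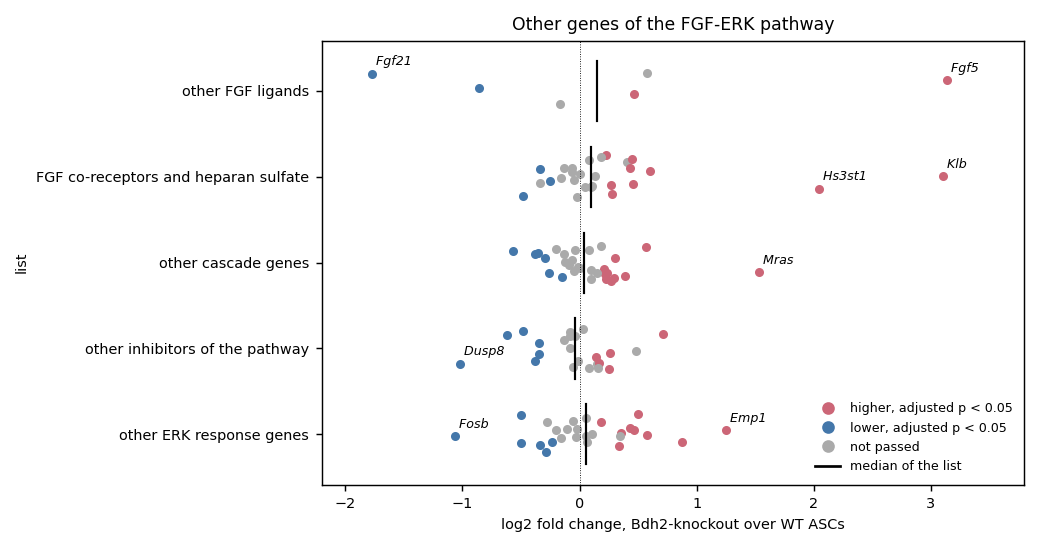
Log2 fold change (*Bdh2*-knockout over WT ASCs, x axis) of the 113 tested genes of the 5 other pathway lists, 1 point per gene, with the median of each list as a black line. The medians lie near 0 in all lists, and *Fgf5* and *Klb* lie farthest to the right at 3.14 and 3.11.

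Markers of other cell types also differed between the libraries. Of all tested genes 41.7% were called, 21.0% higher and 20.8% lower. In *Bdh2*-knockout ASCs 14 of 15 primitive endoderm genes (93.3%) were called higher and *Hnf4a* alone was called lower. *Gata6* and *Sox17* were at 1.42 and 1.28 CPM in WT and 5.72 and 10.3 CPM in the knockout, and none of the list was at 0. Of 15 pluripotency genes 9 were higher and 1 lower (66.7% called, summed 8319 to 8525 CPM in WT, 8754 to 8834 CPM in the knockout). Of 8 tested fibroblast genes 2 were lower (25%, near the 20.8% of all tested genes). The fibroblast list summed to 35.5 to 42.3 CPM in WT and 30.2 to 35.6 CPM in the knockout, with *Lum* at 0 in the knockout. Of 12 dissociation and heat stress genes 4 were higher and 4 lower (66.7% called, summed 557 to 618 CPM in WT and 717 to 741 CPM in the knockout). The chaperone gene *Hspb1*, named after its values were seen, made up most of the rise, from 275 ± 20.4 to 413 ± 12.8 CPM. The 4 higher genes were *Ctgf*, *Hspa1b*, *Hspb1* and *Ppp1r15a*, with log2 fold changes of 0.91, 0.72, 0.59 and 0.19. The 4 lower genes were *Ddit3*, *Gadd45b*, *Atf3* and *Gadd45a*, with log2 fold changes of -1.23, -1.01, -0.39 and -0.24. The stress genes thus moved both ways, and their part in the fall of *Ier3*, *Jun* and *Fos* was not tested.

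WT replicate 3, the WT library with the fewest hepatocyte transcripts, came nearest to the knockout in 15 of the 19 higher FGF-ERK genes (78.9%), beside 58.0% of all 3518 higher genes. Among the lower genes it did so in 3 of 9 (33.3%), beside 46.9%. With a hepatocyte score as covariate 14 of the 45 genes were called higher and 7 lower, and fewer genes were called in all (46.7% of the 45, beside 30.4% of all tested genes). After leaving out the richest library of each genotype, WT replicate 1 and *Bdh2*-knockout replicate 2, 15 were higher and 6 lower (46.7%, beside 27.8%). Leaving out WT replicate 2 as well gave the same counts of 15 and 6 (beside 29.3%). *Fgf17*, *Fgfr2*, *Spry2*, *Dusp4*, *Etv1*, *Etv5*, *Jun* and *Ier3* were called in the same direction in all of these fits and in all other alternatives. *Fgf8*, *Fgf18*, *Fgfr3*, *Fgfrl1* and *Grb2* were called in none of these 3 fits. There the log2 fold change of *Fgf8* was 0.60 to 0.75 (adjusted p = 0.052 to 0.15), that of *Fgf18* 0.72 to 0.93 (adjusted p = 0.088 to 0.31), that of *Fgfr3* -0.84 to -0.31, that of *Fgfrl1* -0.33 to -0.16 and that of *Grb2* -0.016 to 0.14. In addition, *Braf*, *Map2k2*, *Spred1*, *Fos* and *Fosl1* were not called in at least 1 of them. The part of hepatocyte transcripts in these genes was not tested beyond the 3 fits.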

How the data were processed

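RNA of 3 WT and 3 *Bdh2*-knockout ASC libraries was sequenced (Illumina HiSeq). After adaptor and quality trimming, the authors aligned reads to GRCm38 with HISAT2 (2.0.5 in the submitters' processing notes), counted them on genes with FeatureCounts and deposited raw counts without normalization. The annotation release, the strand setting and the treatment of reads with several matches were not given in the sources used here, so overlapping, antisense and related genes cannot be fully separated. The labels and the methods name different RNA extraction reagents.

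The counts were fitted with edgeR 4.0.16 in R 4.3.3 (TMM, filterByExpr, glmQLFit, glmQLFTest, two-sided, genotype as the only factor, Benjamini-Hochberg over 16758 genes, threshold 0.05). Log2 fold changes and SEs are those of this fit. CPM and FPKM were computed here from the TMM library size and the listed gene length, so levels depend on that length. Alternatives were DESeq2 (the study's tool, run here in version 1.42.0), limma-voom (limma 3.58.1), median-of-ratios factors, library totals, no filter, a filter at a mean count of 50, a replicate block, each library left out, a test against 1.2-fold, and a hepatocyte score (mean log2 CPM with 0.5 added) as covariate. Fits without the libraries richest in hepatocyte transcripts were chosen after seeing the data. The function calls were tested on simulated data.

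The members and lists were chosen with earlier results of these data known. Library values are given for members that passed the test and reached 0.5 in absolute log2 fold change, and for the member of each role with the highest FPKM, and other values for genes that another result turns on. Other pathway genes are named where they passed and reached 1 in absolute log2 fold change. Coordinates are those of the deposited table (GRCm38). Overlaps and shared 50-base stretches come from GENCODE M21, read on both strands, and promoters from RefSeq (tables and plots in Python 3.11.15, pandas 2.3.3, matplotlib 3.10.9). The authors' RT-qPCR and other experiments were not analysed here.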

Additional observations from a re-analysis of the deposited data

How the results depend on the processing

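The test against a 1.2-fold change called 1185 genes higher and 1272 lower (3518 and 3478 for any change), and of the FGF-ERK genes 6 higher (1 ligand, 1 receptor, 0 adaptors or kinases, 2 feedback inhibitors, 2 ERK targets) and 2 lower, both ERK targets (0 receptors, 0 adaptors or kinases, 0 feedback inhibitors). Receptors called lower numbered 0 with DESeq2 and with the hepatocyte covariate, and 1 with limma-voom or a mean count of at least 50. Ligands called higher numbered 2 of 8 with the covariate and 2 of 5 tested with a mean count of at least 50, a filter that left *Fgf8*, *Fgf18* and *Fgfr3*, each called without it, untested. With library totals without TMM, 16 FGF-ERK genes were higher and 13 lower. The lower ones were 3 receptors (*Fgfr1* among them), 4 adaptors or kinases (*Sos1* among them), 2 feedback inhibitors and 4 ERK targets (*Egr2* among them). In that fit 38.0% of all calls were higher (50.3% with TMM), and the median of all genes shifted by -0.058. DESeq2 called 1 other FGF ligand lower.

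Leaving out 1 library gave 15 to 18 FGF-ERK genes higher and 4 to 8 lower (44.4% to 57.8% called, beside 32.5% to 43.0% of all genes), with 2 to 4 ligands higher, 0 to 2 receptors lower and 0 to 1 feedback inhibitors lower. The 9 lower calls became 5 without WT replicate 2, 5 without *Bdh2*-knockout replicate 1 and 4 without *Bdh2*-knockout replicate 3. Without the hepatocyte-richest library of each genotype, 2250 of all genes were lower, 2 ligands higher, 0 receptors lower and 2 feedback inhibitors lower. Without the 3 richest, the lone WT library has no spread of its own, so the calls of that fit are not given. *Map2k1*, never called, changed sign with library totals (-0.031), with the covariate (-0.051), in the fits that left out 1 library (-0.015 to 0.085, below 0 without WT replicate 1) and in both hepatocyte fits (-0.0071 and -0.069). The cause of these changes was not tested.

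With the replicate number as a block, 18 FGF-ERK genes were higher and 7 lower and 0 feedback inhibitors lower, and 6452 of all genes were called (6996 without). Libraries with the same number correlated at -0.158, 0.0452 and 0.206 in their deviations from the genotype means, and WT replicate 1 correlated best with *Bdh2*-knockout replicate 2, so the numbers were not taken as pairs. The genes not called under the block were *Grb2*, *Spry4* and *Fos*.

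Scaled to library totals, the summed levels in WT and knockout were 56.5 and 69.5 FPKM for ligands, 240.3 and 243.1 for the cascade, 294 and 318 for feedback inhibitors, and 343 and 391 for ERK targets. Depth limits *Fgf1*, *Fgf8*, *Fgf18*, *Fgfr3* and *Egr2*, whose mean count was under 50, and *Fgfr2* in WT.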
